A study of Mus musculus with 24 samples.

Results

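Mouse embryos depleted of MERVL RNA (MERVL-KD) were compared with control embryos (Ctrl) at the 2-cell stage, across all annotated genes. The comparison used 4 of the 12 RNA libraries with counts in the series, chosen by their labels: 2 Ctrl and 2 MERVL-KD libraries of 2-cell embryos taken at 1.5 days post coitum. Zygotes came from superovulated females; the sample labels name the strain BDF2, whereas the methods of the study describe B6D2F1 (BDF1) matings. Antisense oligonucleotides (ASOs) were injected at 20 µM into the male pronucleus, as an equal mix of 3 MERVL ASOs for MERVL-KD embryos and as a scrambled ASO for Ctrl embryos, so that both groups carried an injected oligonucleotide. Embryos were then cultured in KSOM medium, and 30 embryos without zona were pooled for each library of total RNA. The groups therefore differ in the sequence of the ASO, and an individual embryo cannot be seen in a pool. Of 55291 genes in the counts, 20604 had enough counts to be tested, and repeat families were used for scaling alone.

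MERVL is an endogenous retrovirus of the mouse genome that is transcribed in a burst at the 2-cell stage, when the embryo switches on its own genome and degrades maternal RNA. Its long terminal repeats also act as promoters of neighbouring host genes, so that some transcripts of this stage begin in MERVL and continue into a gene. An ASO of the design used here has modified ends and a DNA centre; it pairs with a complementary RNA and directs RNase H1 to cut it. The oligonucleotides are shown because the place of their target sites is used below to sort the genes; capitals mark the end positions (1 to 5 and 15 to 20, counted from the 5′ end) with 2′-O-methoxyethyl sugars.
MERVL-ASO1: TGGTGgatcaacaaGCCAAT
MERVL-ASO2: CATTTgtctgtttaCCACGA
MERVL-ASO3: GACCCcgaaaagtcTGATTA
Scramble-ASO: AGCGCgggtattgaACCAGG

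In the genome build GRCm38, 702 sites paired with MERVL-ASO1 and 630 with MERVL-ASO3 over all 20 bases. MERVL-ASO2 had 0 exact sites and 322 sites with 1 mismatch, of which 320 carried the same change, T7G (the base of the ASO, its position from the 5′ end, and the base that would pair with the genome). The 20 bases of the Scramble-ASO matched nowhere with fewer than 2 mismatches, and the 1 tested gene with such a site had a log2 fold change of −0.36 and was not called.

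The 4 libraries held 33532931 and 41320446 counts in Ctrl and 35524346 and 30450413 counts in MERVL-KD embryos. The targeted RNA was examined first: MERVL-int, the internal part of MERVL, took 6.33% and 6.57% of the counts in Ctrl and 0.157% and 0.143% in MERVL-KD libraries, so every library followed its label. Repeat families together took 23.6% and 25.2% of the Ctrl counts and 16.5% and 15.8% of the MERVL-KD counts. Levels are given as CPM, counts relative to the size of the library, after TMM scaling, which sets most genes to be equal between libraries; on library size alone, without that step, the median log2 fold change of all genes was 0.30 in place of 0.01. All 8 defining markers of the 2-cell embryo were detected. Their summed level was 633 and 517 CPM in Ctrl and 325 and 403 CPM in MERVL-KD embryos. The 21 cumulus cell markers summed to between 24.9 and 29.1 CPM in every library, with 1 of them, Ptx3, at 0. The 13 sperm markers summed to 254 and 218 CPM in Ctrl and 211 and 241 CPM in MERVL-KD embryos. Of these, 2 genes, Prm3 and Smcp, were at 0. The part of other cells in these sums was not tested.

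Gene expression differed in both directions in MERVL-KD embryos. A gene was called where its adjusted p was under 0.05 and its change 2-fold or more; 1362 of the 20604 tested genes (6.61%) met this rule, 900 higher (4.37%) and 462 lower (2.24%) than in Ctrl. All p-values are from the quasi-likelihood test of edgeR, with a Benjamini-Hochberg adjustment that spans genes and repeat families alike, and they measure the spread between 2 libraries per group. In bulk RNA, a smaller number of cells with a transcript and a lower amount per cell cannot be told apart. Among the 1362 called genes, the 2 libraries of one group never overlapped those of the other, whereas both MERVL-KD libraries lay above both Ctrl libraries in 29.1% of all tested genes and below in 27.0%. Without the fold threshold, 1381 genes were higher (6.70%) and 1523 lower (7.39%), so the balance between the directions turned. With each of the 4 libraries left out in turn, 686 of the called genes were called every time (405 higher and 281 lower).

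**Figure D1:**
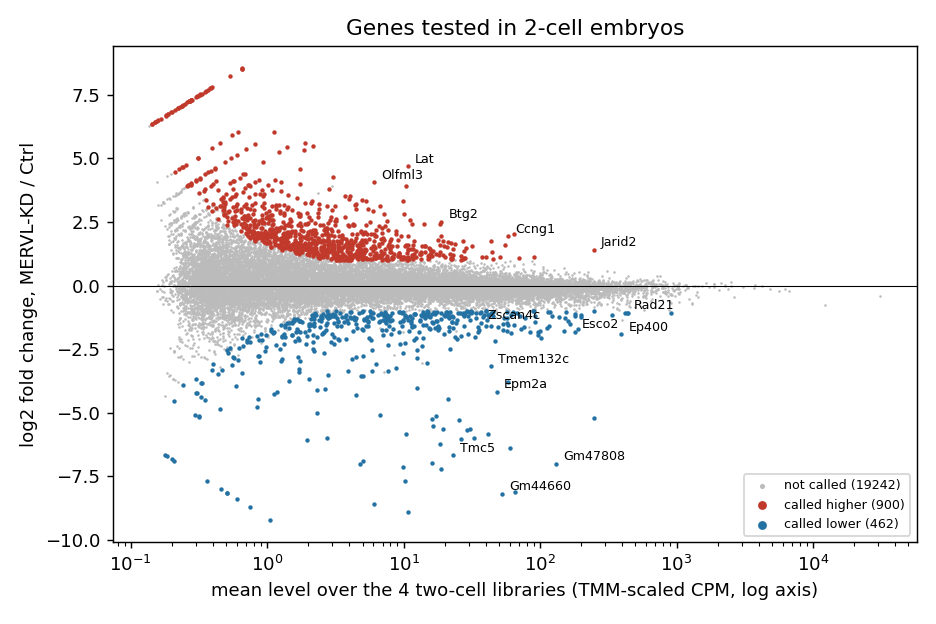
Log2 fold change of MERVL-KD against Ctrl (vertical axis) against the mean level over the 4 libraries (TMM-scaled CPM, log axis) for 20604 tested genes, 1 point each. The 900 genes called higher (red) sit mostly at low levels and the 462 called lower (blue) reach further to the right; Gm47808 and Gm44660 lie at the bottom.

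Genes that rose were weakly expressed in control embryos and those that fell were better expressed. The 900 higher genes had a median level of 0.876 CPM in Ctrl and 3.13 CPM in MERVL-KD embryos, with a median fold of 3.68. For the 462 lower genes the medians were 10.5 and 2.60 CPM, and the median fold was 3.01. All tested genes had a median of 3.69 CPM in Ctrl. The direction of a call partly sets the level in Ctrl. On the mean over both groups the medians were closer, at 2.01 CPM for the higher and 7.12 CPM for the lower genes. In the quintile of genes with the highest mean level, 0.291% were called higher and 1.92% lower, against 7.98% and 1.82% in the second lowest quintile. There were 92 higher genes with 3 counts or fewer in each Ctrl library and 29 lower genes with so few in each MERVL-KD library. Protein-coding genes made up 656 of the higher and 289 of the lower genes, or 4.37% and 1.92% of the 15018 tested. Long noncoding genes made up 94 and 66, or 4.19% and 2.94% of 2244. Over all genes the shares were 4.37% and 2.24%.

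Base composition moved with the result. The median log2 fold change was −0.08 in the quintile of genes with the lowest GC content of their exons and 0.17 in the quintile with the highest, while the median difference between the replicates of one group stayed between −0.02 and 0.02 in those quintiles. The share called lower was 3.66% at low and 0.971% at high GC content, and the share called higher was 3.18% and 6.72%. With an offset that removes this trend, chosen after seeing the data, 1301 genes were called, 881 higher and 420 lower. What the trend came from was not tested.

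The protein-coding genes that rose with the smallest adjusted p included regulators of cell division and of chromatin. Ccng1, which encodes the p53-induced cyclin G1, lies on chromosome 11 (40748552-40755311). It measured 24.3 and 23.9 CPM in Ctrl and 94.5 and 89.2 CPM in MERVL-KD embryos, a log2 fold change of 1.93 ± 0.11 (SE; adjusted p = 8.9e-09). Cdkn1c, an imprinted gene for the CDK inhibitor p57, rose from 4.56 and 6.88 to 31.8 and 30.3 CPM (2.43 ± 0.19, adjusted p = 5.7e-07). Jarid2, a partner of the Polycomb repressive complex that methylates H3K27, was the highest-expressed gene of this set, with 134.2 and 137 CPM in Ctrl and 311 and 408 CPM in MERVL-KD embryos (1.41 ± 0.11). Chd2, a chromatin remodeler, measured 27.9 and 26.5 against 94.5 and 71.5 CPM (1.61 ± 0.13). In each of these genes, as in all 900 genes called higher, both MERVL-KD libraries stood above either Ctrl library.

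Gpr50, an orphan G-protein-coupled receptor, rose from 22.7 and 28.3 to 103 and 105 CPM. Lat, an adaptor of T cell receptor signalling, was near the bottom of the range in Ctrl (0.647 and 0.928 CPM) and measured 24.5 and 16.7 CPM in MERVL-KD embryos, a log2 fold change of 4.69 ± 0.28. Olfml3, a secreted olfactomedin-like protein, rose from 0.679 and 0.682 to 13.7 and 9.18 CPM, and the zinc finger gene Zfp651 from 0.841 and 1.69 to 21.6 and 17.6 CPM. Clec10a, a lectin of macrophages, rose from 4.01 and 4.89 to 23.7 and 23.8 CPM. The macrophage marker Cd68 measured 0.647 and 0.655 against 6.96 and 4.34 CPM. It was the 1 called gene among 6 tested blood cell markers, whose summed level was 4.08 and 3.33 CPM in Ctrl and 13.8 and 10.2 CPM in MERVL-KD embryos, with the globin genes Hbb-bs and Hbb-bt, not tested, at 0 in all libraries; the part of blood cells in these values was not tested. The last 2 protein-coding genes were Gm8251, at 1.81 and 1.75 against 18.5 and 17.7 CPM, and 1810030O07Rik, at 3.27 and 3.88 against 21.2 and 17.6 CPM.

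Of genes that do not code for protein or have no biotype here, the smallest adjusted p among those that rose belonged to C78859, Pwwp3b, B130021K23Rik, Gm38215, Gm19334 and the small nucleolar RNA gene Snord55. Their log2 fold changes lay between 1.73 for Pwwp3b and 5.32 for C78859. Snord55 measured 1.71 and 2.68 CPM in Ctrl and 10.2 and 11.997 CPM in MERVL-KD embryos.

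Target genes of p53, the transcription factor that answers DNA damage and other stress, were among the genes that rose, while the gene for p53 itself did not pass the test. Trp53 measured 25.1 and 26.2 CPM in Ctrl and 30.1 and 26.0 CPM in MERVL-KD embryos (log2 fold change 0.13 ± 0.14, adjusted p = 0.61). Of 49 tested targets in 3 lists, 15 were called higher (30.6%, against 4.37% of all genes) and 0 lower. Their median log2 fold change was 0.34 against 0.01. Like all gene lists here, these were written with earlier results of these data known, so their shares were not tested. Within the lists the called members were 7 of 18 in arrest and feedback, 5 of 14 in cell death and 3 of 17 in repair and metabolism.

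The arrest genes included inhibitors of the cell cycle and Polo-like kinases. Btg2, an antiproliferative factor, rose from 5.43 and 5.90 to 27.6 and 36.7 CPM (2.50 ± 0.18, adjusted p = 1.8e-07). Cdkn1a, which encodes the CDK inhibitor p21, rose from 8.41 and 11.6 to 31.0 and 27.5 CPM (1.55 ± 0.17, adjusted p = 2.2e-05). Plk2 and Plk3 are stress-responsive kinases of the Polo family. The first measured 25.8 and 24.5 against 60.6 and 65.9 CPM, the second 15.04 and 17.2 against 49.3 and 44.9 CPM. In all of these, as in every called gene, the groups did not overlap. Sfn, for the checkpoint protein 14-3-3 sigma, and Zmat3, an RNA-binding target of p53, had log2 fold changes of 1.68 ± 0.17 and 1.75 ± 0.24. Mdm2, for the ubiquitin ligase that degrades p53, measured 184 and 186 CPM in Ctrl and 164 and 160.1 CPM in MERVL-KD embryos and did not pass the test (−0.19 ± 0.08, adjusted p = 0.16).

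Among the death genes, Pmaip1, which encodes the BH3-only protein Noxa, rose from 13.6 and 11.03 to 43.7 and 39.8 CPM (1.76 ± 0.15, adjusted p = 1.1e-06). Bbc3, for the related protein Puma, rose from 1.10 and 0.983 to 4.06 and 4.52 CPM (2.04 ± 0.33). The death receptors Eda2r and Tnfrsf10b had log2 fold changes of 3.38 ± 0.32 and 2.01 ± 0.28; Eda2r measured 0.647 and 1.06 CPM in Ctrl and 7.49 and 10.7 CPM in MERVL-KD embryos. Phlda3, an inhibitor of AKT and named after its values were seen, had no counts in Ctrl and 1.52 and 0.598 CPM in MERVL-KD embryos, at least 11.9-fold higher against a floor of 3 counts per library. The repair list gave Polk, a translesion DNA polymerase (1.27 ± 0.22), Ercc5, an excision repair nuclease (1.55 ± 0.27), and the cytokine gene Lif (1.30 ± 0.37, adjusted p = 0.026). The call of Lif was kept in 2 of the 4 fits that leave out a library.

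**Figure D2:**
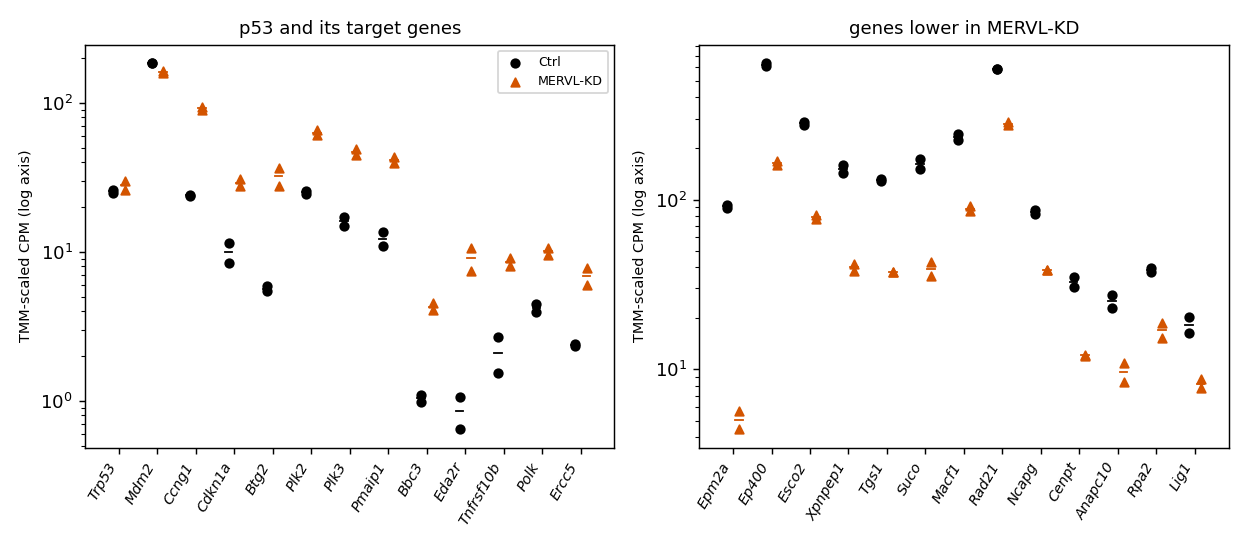
Levels in the single libraries (TMM-scaled CPM, log axis) of Trp53, Mdm2 and called p53 target genes (left) and of genes called lower (right); black circles are the 2 Ctrl libraries, orange triangles the 2 MERVL-KD libraries and bars their means. Trp53 and Mdm2 are close between the groups, and the groups are apart in every other gene shown.

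The promoters of the called p53 targets were read to see which carry the p53 half-site consensus of 10 bases, searched in either strand without mismatches. In the 250 bases before the RefSeq start (GRCm38.p6), taking the first listed start of each gene, 838 of 13178 tested genes with a window held one (6.36%), as did 41 of 555 genes called higher (7.39%) and 14 of 250 called lower (5.60%). Of 39 tested p53 targets with a window 10 held one, as did 3 of the 12 called higher. These were Cdkn1a, Ccng1 and Polk; at their other listed start, the windows of Cdkn1a and Polk held 0. The first listed windows of Cdkn1a and Ccng1 are shown with half-sites in capitals, in the direction of transcription.
Cdkn1a, chr17:29090729-29090978, plus strand: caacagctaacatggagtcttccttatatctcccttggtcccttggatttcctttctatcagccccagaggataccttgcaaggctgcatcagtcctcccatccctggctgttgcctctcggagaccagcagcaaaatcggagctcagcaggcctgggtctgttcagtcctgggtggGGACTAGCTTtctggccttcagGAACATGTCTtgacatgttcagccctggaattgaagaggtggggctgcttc
Ccng1, chr11:40755287-40755536, minus strand: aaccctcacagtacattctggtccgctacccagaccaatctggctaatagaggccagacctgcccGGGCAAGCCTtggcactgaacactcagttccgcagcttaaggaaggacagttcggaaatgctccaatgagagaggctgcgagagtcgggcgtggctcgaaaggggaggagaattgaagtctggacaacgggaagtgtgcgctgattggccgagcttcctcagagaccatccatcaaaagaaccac
A half-site in these letters is a description of the sequence and was not tested as a binding site.

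None of 32 genes of DNA damage signalling and double-strand break repair was called; Usp28, a deubiquitinase, was at 0.16 ± 0.08, and Brca2, a recombination mediator, measured 1154 and 1171 CPM in Ctrl and 929.8 and 1009 CPM in MERVL-KD embryos (−0.26 ± 0.07). Among 18 genes of endoplasmic reticulum chaperones and the unfolded protein response, 20 heat shock genes and 18 genes of the NRF2 response to oxidants, none was called. The highest-expressed members were Dnajb9 and Calr, Hsp90aa1 and Hsp90ab1, and G6pdx and Mafg, with log2 fold changes between −0.23 and 0.10. The ATF4 pathway had 1 called member of 22, the asparagine synthetase Asns (1.48 ± 0.37, adjusted p = 0.014). Of the Bcl2 family and caspases outside the p53 targets, Bcl2l11, for the death promoter Bim, rose from 25.4 and 21.2 to 57.5 and 45.1 CPM and the initiator caspase gene Casp8 fell from 3.69 and 2.29 to 1.12 and 1.32 CPM, out of 21 tested. Of 22 immediate early genes 3 were called (13.6%, against 6.61% of all genes), Dusp5 (1.47 ± 0.17) and Ier3 (1.28 ± 0.40) higher and Klf10 (−1.16 ± 0.14) lower; 19 values were positive and the median was 0.34. The calls of Asns, Bcl2l11, Casp8 and Ier3 ended in at least 1 of the fits without a library.

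Of 27 tested genes of RNA sensing and the interferon response 6 were called higher (22.2%, against 4.37% of all genes) and 0 lower. Irf7, a transcription factor that induces interferon, rose from 4.37 and 6.11 to 15.9 and 15.4 CPM (1.58 ± 0.21, adjusted p = 9.0e-05). Dhx58, a helicase that modulates RNA sensing, rose from 0.453 and 0.601 to 5.33 and 3.20 CPM (3.00 ± 0.41). Sting1, Irf9, the ubiquitin-like modifier Isg15 and Eif2ak2, a kinase activated by double-stranded RNA, had log2 fold changes of 2.52, 1.16, 1.92 and 2.15. All 6 measured under 7 CPM in both Ctrl libraries, and the call of Irf9 ended without Ctrl replicate 1 (0.92) or MERVL-KD replicate 1 (0.85) and that of Isg15 without Ctrl replicate 2 (1.79). None of 22 genes of RNase H and RNA decay was called; the decapping enzyme gene Dcp2 was at −0.15 and the surveillance helicase gene Upf1 at 0.19. Rnaseh1, for the enzyme through which such ASOs act, measured 14.7 and 13.6 CPM in Ctrl and 11.4 and 10.9 CPM in MERVL-KD embryos (−0.34 ± 0.17, adjusted p = 0.22).

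The genes that fell included some of sister chromatid cohesion and chromosome segregation. Esco2, the acetyltransferase that establishes cohesion during replication, measured 275 and 286 CPM in Ctrl and 77.1 and 81.2 CPM in MERVL-KD embryos (−1.82 ± 0.09, adjusted p = 1.2e-09). Rad21, the kleisin subunit of the cohesin ring, fell from 587 and 588 to 284 and 275 CPM (−1.07 ± 0.08, adjusted p = 1.9e-07). Of 80 tested genes of the spindle, kinetochore, cohesin and anaphase 7 were called lower (8.75%, against 2.24% of all genes) and 0 higher. Without the fold threshold 41 of the 80 were lower and 1 higher, and the median log2 fold change of the list was −0.37. On library size alone that median was −0.08 and 2 members were called lower, with all genes at 0.30; the calls of Rad21 (−0.78), Ncapg (−0.86), Bub3 (−0.74), Cenpp (−0.79) and Cenpb (−0.92) ended there. With the GC offset 4 were called lower, without Rad21 (−0.99), Bub3 (−0.93) and Cenpp (−0.95).

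The other 6 called members of that list act in different parts of mitosis. Ncapg, of the condensin I complex that compacts chromosomes, fell from 86.9 and 82.5 to 38.3 CPM in both MERVL-KD libraries (−1.15 ± 0.10). Cenpt, a kinetochore protein that links centromere and microtubules, fell from 30.6 and 34.9 to 12.1 and 12.2 CPM (−1.44 ± 0.15), and Anapc10, of the anaphase-promoting complex, from 27.3 and 23.0 to 8.45 and 10.9 CPM (−1.38 ± 0.18). The spindle checkpoint gene Bub3 and the centromere genes Cenpp and Cenpb had log2 fold changes of −1.03, −1.08 and −1.21. The call of Bub3 ended without Ctrl replicate 1 (−0.93) or MERVL-KD replicate 2 (−0.95), and that of Cenpb without Ctrl replicate 2 (−1.13) or MERVL-KD replicate 1 (−0.81). In each of the 7 genes, as in all 462 genes called lower, the higher MERVL-KD library was below the lower Ctrl library.

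Of 55 DNA replication genes 3 were called (5.45%, against 6.61% of all genes). Rpa2, of the complex that binds single-stranded DNA, fell from 37.5 and 39.3 to 15.3 and 18.7 CPM (−1.18 ± 0.14), Lig1, the ligase of Okazaki fragments, fell from 20.4 and 16.3 to 8.73 and 7.78 CPM (−1.15 ± 0.18), and the thymidine kinase Tk1 rose (1.09 ± 0.19). Of 56 cyclins, CDKs and CDC genes 4 were called higher (7.14%, against 4.37% of all genes) and 0 lower. They are Ccng1, Cdkn1a and Cdkn1c, given above, and the CDK inhibitor Cdkn2b, which rose from 0.485 and 0.874 to 4.32 and 3.23 CPM (2.45 ± 0.40). At an adjusted p under 0.05 with no fold threshold, 5 members were higher and 11 lower.

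The other protein-coding genes that fell with the smallest adjusted p had diverse functions. Ep400, the ATPase of the TIP60 histone acetyltransferase and exchange complex, was the highest-expressed of them and fell from 609 and 637 to 161 and 169 CPM (−1.92 ± 0.08, adjusted p = 2.5e-10). Epm2a, for the glycogen phosphatase laforin, measured 88.8 and 93.3 CPM in Ctrl and 4.44 and 5.68 CPM in MERVL-KD embryos (−4.17 ± 0.14). Tgs1, which trimethylates the cap of small nuclear RNAs, fell from 133 and 129 to 37.2 CPM in both MERVL-KD libraries. Socs7, of the suppressors of cytokine signalling, fell from 287 and 298 to 86.7 and 90.4 CPM, and Macf1, which crosslinks microtubules and actin, from 225 and 243 to 85.7 and 91.4 CPM. The aminopeptidase Xpnpep1, the endoplasmic reticulum protein Suco and the predicted gene Gm7102 had log2 fold changes of −1.93, −2.05 and −3.79. The remaining genes of this set are Tmc5, Tmem72 and Tmem132c, which carry an ASO site in their gene body and are described with the sites.

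Of 34 tested markers of the 2-cell stage 5 were called lower (14.7%, against 2.24% of all genes) and 0 higher. With no fold threshold 20 of the 34 were lower, against 7.39% of all genes, and the median log2 fold change was −0.58; it was −0.30 with 2 called on library size alone, where all genes were at 0.30. The number called lower was 3 without Ctrl replicate 1 and 8 without MERVL-KD replicate 2. Zscan4c, of the zinc finger family expressed at this stage, measured 63.8 and 44.0 CPM in Ctrl and 18.6 and 20.2 CPM in MERVL-KD embryos (−1.47 ± 0.16, adjusted p = 1.9e-05). Tdpoz2, of a multicopy BTB-domain family, was at 41.0 CPM in both Ctrl libraries and at 14.8 and 20.9 CPM in MERVL-KD embryos (−1.21 ± 0.16). AF067061, Gm20767 and the ubiquitin protease gene Usp17le had log2 fold changes of −1.34, −1.10 and −1.07. Without MERVL-KD replicate 1 the calls of Tdpoz2 (−0.98) and Gm20767 (−0.89) ended, without Ctrl replicate 1 those of Gm20767 (−0.87) and Usp17le (−0.94), and without MERVL-KD replicate 2 that of Usp17le (−0.74). Zscan4c, Tdpoz2, Gm20767, AF067061 and Usp17le have near-identical copies, and reads with several equal alignments were not counted, so these values cover only their unique parts. Duxf3, for the transcription factor Dux that switches on MERVL, was low in every library, at 4.46 and 2.32 CPM in Ctrl and 1.60 and 2.84 CPM in MERVL-KD embryos, which overlap (−0.61 ± 0.38, adjusted p = 0.34).

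Regulators of genome activation gave no call among 26; the highest-expressed, Rif1 and the acetyltransferase gene Crebbp, had log2 fold changes of −0.05 and 0.02. Obox homeobox genes gave none among 7, although Obox5 measured 449.8 and 447 against 269.9 and 288 CPM (−0.68 ± 0.08, adjusted p = 3.2e-05). Of the PRAME-like family Pramel3 fell (−1.21 ± 0.26), 1 of 16, and among 15 Kruppel-like factors Klf10 alone was called.

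Lists of RNAs that the oocyte supplies had negative medians after TMM scaling. None of 29 oocyte coat, growth factor and regulator genes was called, yet 11 were lower with no fold threshold and the list median was −0.28, or 0.01 on library size alone with all genes at 0.30. Among them Tcl1, a coactivator of AKT, measured 958 and 1025 CPM in Ctrl and 692 and 801 CPM in MERVL-KD embryos (−0.41 ± 0.08), and Omt2b 634 and 655 against 578 and 569.9 CPM (−0.17 ± 0.07, adjusted p = 0.16). The subcortical maternal complex and NLRP genes had 17 negative values of 17, with a median of −0.35, and 1 call, Nlrp4c (−1.11 ± 0.18). Maternal RNA storage and decay factors gave no call among 33. Btg4, the adaptor that brings the deadenylase to maternal RNA, measured 1703 and 1514 against 875 and 1125 CPM (−0.69 ± 0.10, adjusted p = 5.6e-04), and the deadenylase subunit gene Pan3 was at −0.24 ± 0.07. Of the oocyte Fbxw cluster 0 of 16 were called, with Fbxw24 at −0.30 and Fbxw19 at −0.14.

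Among factors of the first cell lineages, none of 20 pluripotency factors was called: Pou5f1 (Oct4) measured 82.0 and 78.1 CPM in Ctrl and 76.3 and 76.1 CPM in MERVL-KD embryos (−0.07 ± 0.10, adjusted p = 0.71), Sall4 had a log2 fold change of −0.02, and Dppa3 (Stella), a maternal factor that guards DNA methylation, one of −0.54 ± 0.08. Of 28 trophectoderm and Hippo genes 3 were called higher (10.7%, against 4.37% of all genes). The Hippo regulator Amot rose from 12.7 and 12.6 to 26.9 and 27.9 CPM, and the trophoblast factors Gata2 and Hand1 had log2 fold changes of 1.44 ± 0.23 and 2.19 ± 0.46. Cdx2, which specifies the trophectoderm, stayed under 1 CPM in all libraries (1.14 ± 0.63, adjusted p = 0.27). The primitive endoderm genes Gata4 and Dab2 were at −0.32 and −0.45, with 0 of 11 called. Of 28 cell junction and polarity genes Scrib (1.00 ± 0.14) and the plakoglobin gene Jup (1.25 ± 0.19) rose. Without MERVL-KD replicate 2 the calls of Jup (0.90) and Hand1 (1.27) ended, and without MERVL-KD replicate 1 that of Scrib (0.94).

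Of 78 tested ligands and receptors of the FGF, WNT, BMP/TGF-beta and Notch pathways, 11 were called higher (14.1%, against 4.37% of all genes and 7.98% in the second lowest quintile of mean level) and 2 lower (2.56%, against 2.24%). The median log2 fold change was 0.23; with the GC offset 9 were higher. The number higher was 7 without Ctrl replicate 1, without Ctrl replicate 2 or without MERVL-KD replicate 1, and 8 without MERVL-KD replicate 2, where 4 were lower. Fgf18 rose from 2.26 and 2.51 to 10.9 and 8.44 CPM (2.02 ± 0.25) and Gdf5, a BMP ligand, from 0.744 and 0.819 to 2.49 and 3.41 CPM (1.91 ± 0.39). The other 9, chosen after their values were seen, are the receptors Notch1, Notch2, Notch3, Fgfr3, Fgfr4 and Acvrl1 and the ligands Bmp4, Wnt9b and Gdf11, with log2 fold changes between 1.01 for Notch1 and 1.98 for Bmp4; each of these 9 lost its call without at least 1 library. Tgfb2, the best expressed ligand named here, went the other way, from 271 and 218 to 78.1 and 93.7 CPM (−1.51 ± 0.12, adjusted p = 5.7e-07), and so did Fgf7, from 10.5 in both Ctrl libraries to 4.26 and 3.86 CPM (−1.37 ± 0.21).

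Among chromatin regulators, Kdm4c, a demethylase of H3K9 and H3K36, fell from 59.9 and 60.9 to 22.7 and 16.8 CPM (−1.61 ± 0.14), 1 of 25 lysine demethylases. Remodelers gave Chd2 and Chd5 (1.35 ± 0.22) higher and Ep400 lower among 40 (7.50% called, against 6.61% of all genes), and DNA methylation factors gave the methyl-CpG binder Mbd1 (1.38 ± 0.26) among 18. None of 28 genes of H3K9 methylation and retroviral silencing was called; Atrx and Resf1 had log2 fold changes of −0.08 and 0.07. Histone chaperones gave 0 calls of 24, with Npm1 at −0.19 and Set at 0.05. Replication-dependent histone genes gave 0 of 57, with a median of −0.33 (−0.04 on library size alone); H1f1 and H3c7 were at −0.34 ± 0.08 and −0.50 ± 0.08. Imprinted genes gave Cdkn1c higher and the antisense transcript Kcnq1ot1 lower (21.3 and 19.4 against 7.87 and 11.04 CPM, −1.11 ± 0.19) among 32; both lie in the same imprinted domain of chromosome 7. Of 374 zinc finger genes named Zfp, 11 were higher (2.94%, against 4.37% of all genes) and 9 lower (2.41%, against 2.24%). Zfp651 and Zfp62 (1.75 ± 0.21) rose and Zfp719, Zfp644 and Zfp367 fell, by 1.96, 1.05 and 1.15 on the log2 scale.

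Several lists of genes that make RNA and protein held no call. Cytosolic ribosomal proteins gave 0 calls of 87 (Rplp0 −0.41 ± 0.09, Rpl41 −0.29 ± 0.10), mitochondrial ribosomal proteins 0 of 77 (Mrps30 −0.37, Mrpl40 0.13), RNA polymerase II and Mediator genes 0 of 78 (Gtf2a1 0.11, Med13 −0.01), and the proteasome 0 of 46 (Psme4 0.04, Psme3 −0.35). Of 68 ribosome biogenesis genes the list's name pattern caught 1 call, Nol3 (2.84 ± 0.49), which encodes a death repressor rather than a ribosome factor, and of 56 initiation factors the 1 call was the kinase Eif2ak2; Eif1ad, an initiation factor homologue, measured 32.8 and 36.1 against 29.1 and 30.2 CPM (−0.22 ± 0.13). The list of spliceosome and splicing regulator genes gave 3 lower of 95 (3.16%, against 2.24% of all genes). They were Rbm6 (335 and 328 against 152 and 179 CPM), Rbm44 and Rbm15, with log2 fold changes of −1.004, −1.07 and −1.06. These encode RNA-binding proteins, and whether each acts in splicing was not examined. None of the 3 was called with the GC offset. Rbm15 recruits the m6A methyltransferase and was also the 1 call of 19 m6A factors. Iars, the cytosolic isoleucyl-tRNA synthetase, fell from 201 and 215 to 102 and 98.5 CPM (−1.06 ± 0.09) and the mitochondrial Tars2 rose (1.07 ± 0.24), out of 38 aminoacyl-tRNA synthetases (5.26% called, against 6.61%). Of the casein kinase 2 subunits none was called; Csnk2a1 measured 221 and 209 against 162 CPM in both MERVL-KD libraries (−0.41 ± 0.09) and Csnk2b was at −0.16. Among 29 nuclear pore genes Nup62cl fell (−1.19 ± 0.19). Small nucleolar RNA genes gave 4 higher of 41 (9.76%, against 4.37%), Snord55, Snord83b (5.59 ± 0.64), the host transcript Snhg14 (1.05 ± 0.20) and Snord110 (2.44 ± 0.77); only the part of these small RNAs kept in the libraries was counted.

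Of 91 nuclear genes of oxidative phosphorylation 2 were called higher (2.20%, against 4.37% of all genes), Ndufb2 (1.33 ± 0.32) and Ndufb4 (1.45 ± 0.46). Without Ctrl replicate 2 they were at 0.92 and 1.26. Of 45 genes of glycolysis and the TCA cycle 1 was called higher (2.22%), the aldolase gene Aldoc. It rose from 0.518 and 0.819 to 6.40 and 8.05 CPM (3.41 ± 0.33). None of 30 sterol and fatty acid synthesis genes was called (Fdft1 −0.72 ± 0.09, Sqle −0.16), and none of 40 autophagy and lysosome genes (Ctsl −0.02, Map1lc3b 0.10). The 13 protein-coding transcripts of the mitochondrial genome had no counts in the deposited data and were not tested. Solute carriers gave 17 higher (5.70%, against 4.37% of all genes) and 3 lower of 298 (1.01%, against 2.24%), or 5 lower without MERVL-KD replicate 2. The myo-inositol transporter Slc5a3 rose from 42.2 and 47.7 to 109 and 80.9 CPM, the thiamine transporter Slc19a2 and the mitochondrial carrier Slc25a18 had log2 fold changes of 1.55 and 2.87, and the urea transporter Slc14a2 fell (−2.21 ± 0.33).

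Genes of other cell types gave both directions. Of 131 tested olfactory and vomeronasal receptor genes, 10 were higher (7.63%, against 4.37% of all genes) and 13 lower (9.92%, against 2.24%; 8 genes without Ctrl replicate 1), with Olfr450 (10.3 and 8.38 against 0.965 and 0.598 CPM), Olfr787 (−3.07 ± 0.28) and Vmn2r1 (−2.34 ± 0.23) lower and Vmn1r207 (2.38 ± 0.42) higher. The steroid transport gene Star (1.14 ± 0.30) was the 1 call among 8 cumulus markers and Acrv1 (1.75 ± 0.56) the 1 among 5 sperm markers. Markers of later embryonic tissue gave 0 calls of 7, with Psg17 at −0.41 and Pax6 at −0.15. Predicted genes named Gm gave 193 higher (4.47%) and 158 lower (3.66%) of 4313, and genes named by a RIKEN clone 27 and 18 of 946, among them D030056L22Rik (−1.21 ± 0.11), 2610008E11Rik (−4.06 ± 0.42) and D130043K22Rik (2.36 ± 0.24).

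**Figure D3:**
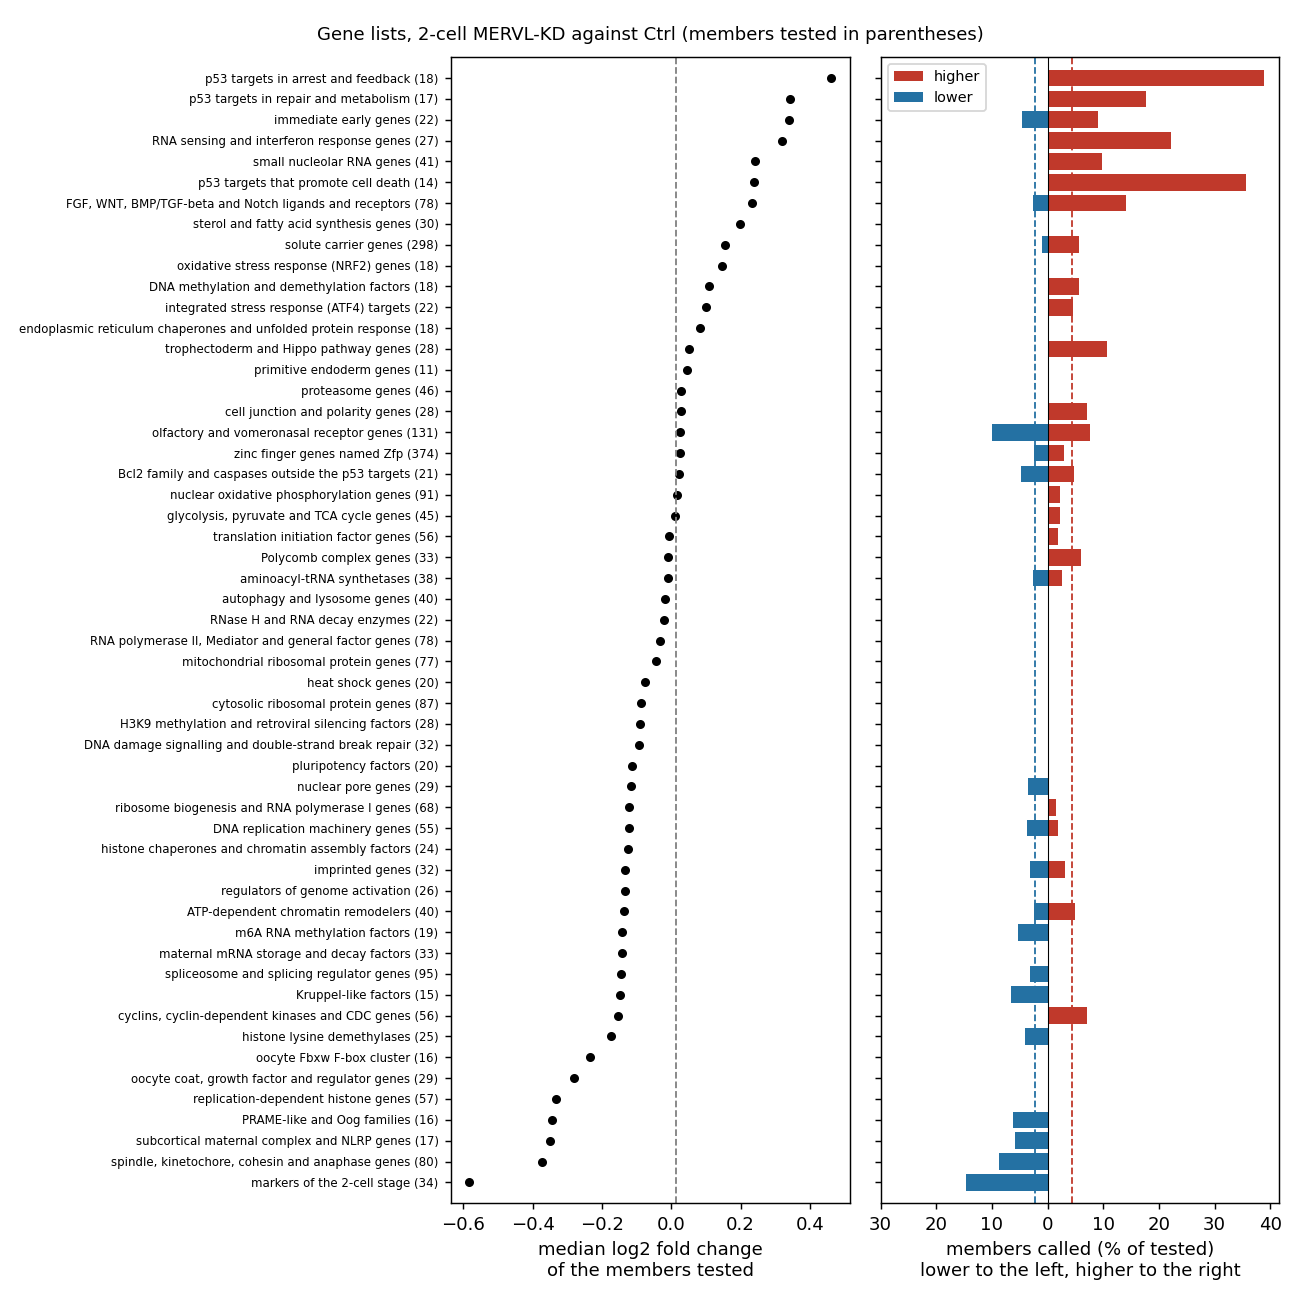
Gene lists with at least 10 tested members, 1 row each (number tested in parentheses), sorted by the median log2 fold change of MERVL-KD against Ctrl (left) and with the percent of members called higher (red) or lower (blue) on the right; dashed lines are the values of all genes. The p53 arrest list (median 0.46, 38.9% higher) is at the top and the 2-cell markers (−0.58, 14.7% lower) at the bottom; on library size alone every median is about 0.3 higher, which turns the sign of lists such as the oocyte genes.

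The position of ASO sites was then compared with the change of the genes. In this section a site pairs with a MERVL ASO with up to 1 mismatch. In 144 tested genes such a site lay in the transcribed strand of the gene body, where the RNA is complementary to the ASO; 48 of them were called lower (33.3%, against 2.24% of all genes) and 1 higher. Their median log2 fold change was −0.57. All 8 genes with the site in an exon were lower, with a median of −7.11, whereas of 136 genes with sites in introns only 40 were lower (29.4%) and the median was −0.53. The exons of these 8 genes hold the sequence that the ASOs were designed to cut. Their fall therefore repeats the knockdown of the target and is not a separate result about host genes. Of 122 genes with sites only in the opposite strand 7 were lower and 2 higher, with a median of −0.15.

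The 6 leading genes of this set, by adjusted p, are annotated as 4 long noncoding genes and 2 entries awaiting experimental evidence. Gm47808, on chromosome 12 (11507226-11512390, minus strand), had the smallest adjusted p of all genes and fell from 244 and 275 CPM in Ctrl to 1.88 and 2.15 CPM in MERVL-KD embryos (−7.01 ± 0.13, adjusted p = 1.5e-14). Its exon holds a site of each MERVL ASO. They are written 5′ to 3′ in the strand of the gene, GRCm38, with a mismatched base in capitals.
MERVL-ASO3 site, chr12:11510254-11510273: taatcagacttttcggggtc
MERVL-ASO2 site, chr12:11510506-11510525: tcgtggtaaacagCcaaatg
MERVL-ASO1 site, chr12:11512112-11512131: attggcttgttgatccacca
Gm44660, on chromosome 7 (19897334-19899798), has exonic sites of MERVL-ASO1 and MERVL-ASO2 and fell from 97.7 and 112 to 0.406 and 0.299 CPM (−8.19 ± 0.19). Gm48271, with 3 exonic sites on chromosome 10, fell from 39.5 and 35.1 to 0.203 and 0.299 CPM (−7.21 ± 0.25). Gm48754, Gm48799 and Gm48764 have their sites in introns of the annotation and had log2 fold changes of −6.40, −5.81 and −6.01. All 6 measured under 2.5 CPM in both MERVL-KD libraries.

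Protein-coding genes with a site in the transcribed strand changed less. Of 89, 17 were called lower (19.1%) and 1 higher, with a median log2 fold change of −0.41. Tmem132c, with intronic sites of MERVL-ASO1 and MERVL-ASO3, fell from 93.2 and 63.2 to 9.32 and 7.96 CPM (−3.17 ± 0.18). Arid4a, Snapc3, Antxr1 and Nom1 also have intronic sites; they were named after their values were seen and had log2 fold changes of −1.42, −2.03, −1.82 and −1.87. Clec10a, with 3 intronic sites at its start on chromosome 11 (70156407 to 70158248), is the 1 that rose. Tmc5 and Tmem72 have sites in the opposite strand. Tmc5 fell from 42.3 and 48.2 to 0.457 and 0.419 CPM (−6.68 ± 0.21, adjusted p = 9.4e-12) and Tmem72 from 162 and 180.3 to 51.1 and 57.6 CPM (−1.66 ± 0.10).

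Genes without a site in their body were sorted by the distance to the nearest one. Of 82 genes with a same-strand site within 10 kb upstream of the start, 24 were called lower (29.3%), with a median of −0.54. Between 10 and 50 kb 22 of 240 were lower (9.17%), between 50 and 200 kb 15 of 500 (3.00%), and beyond 1000 kb 300 of 17118 (1.75%). With the upstream site in the opposite strand, 5 of 54 genes were lower within 10 kb (9.26%), with a median of −0.03. Between 10 and 50 kb these were 3 of 152 (1.97%). Gm5117, a pseudogene with a same-strand site 5313 bases upstream, fell from 523 and 442 to 15.3 and 11.2 CPM (−5.19 ± 0.15); it was named after its values were seen. Downstream of the end, 13 of 58 genes with a site in the opposite strand within 10 kb were lower (22.4%) and 9 of 58 with one in the same strand (15.5%). The strand setting of the deposited counts is not given in the sources used here, so reads of a gene and of a transcript in the other strand may not be separated.

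Genes with a site nearby fell more often than other genes, yet most genes that fell had none. In the body or within 10 kb on either strand, 512 of all 20604 tested genes had a site. They included 101 of the 462 lower genes (19.7% of the 512) and 10 of the 900 higher genes (1.95%). The other 361 lower genes had none. Among the 20092 genes without such a site 890 were called higher (4.43%) and 361 lower (1.80%), with a median of 0.02. Within 200 kb the split was 177 lower genes of 3109, against 285 of 17495 farther away.

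**Figure D4:**
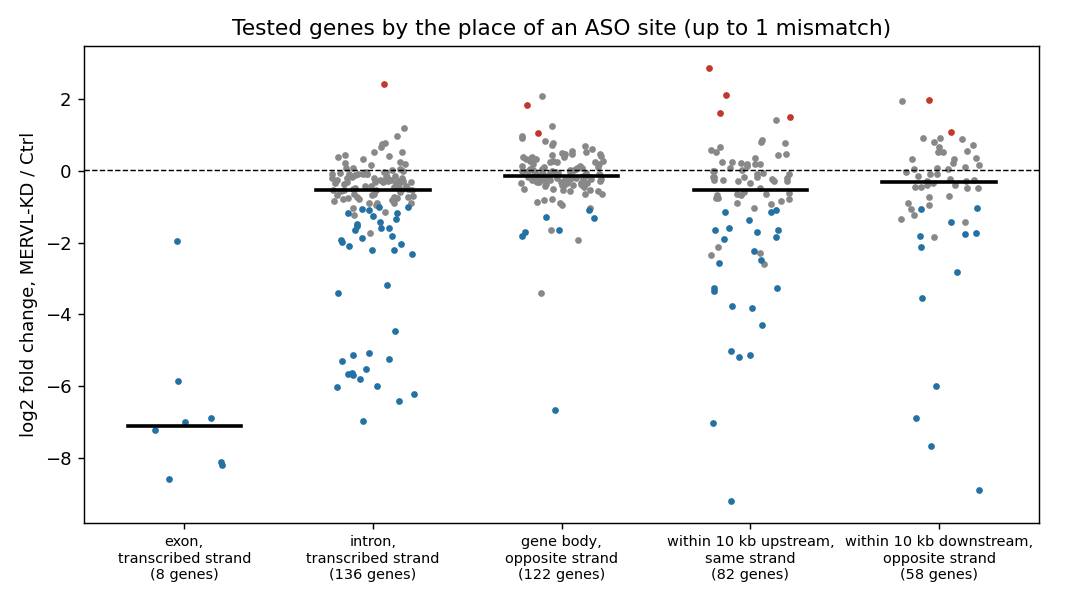
Log2 fold change of MERVL-KD against Ctrl of tested genes, 1 point each, by the place of a MERVL ASO site with up to 1 mismatch. A gene with sites in several places is shown once, in the leftmost of them. Sites upstream in the opposite strand or downstream in the same strand are not shown. Red and blue are genes called higher and lower, bars are medians and the dashed line is the median of all genes. All 8 genes with an exonic site in the transcribed strand are called lower (median −7.11), and the medians of the other places lie between −0.54 and −0.15.

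A fit of all 12 libraries tested whether the knockdown effect at the 2-cell stage differed from the effect at later stages. Each stage had 2 Ctrl and 2 MERVL-KD libraries. The labels give 4-cell and 8-cell embryos the same age in days post coitum and tell them apart by cleavage stage. They do not say whether these embryos also differed in the hour or the way of collection. The paper states that stages were checked by eye and that MERVL-KD embryos developed with a delay. The part of this delay in the stage differences was not tested. The 2-cell effect differed from the 4-cell effect in 552 of 24040 genes (2.30%), 247 with a more positive (1.03%) and 305 with a more negative value at the 2-cell stage. Against the 8-cell effect 563 genes differed (2.34%), 279 positive (1.16%) and 284 negative (1.18%). The values of this paragraph and the next are log2 fold changes of that fit, which shares 1 estimate of spread. Epm2a fell more at the 2-cell stage than later, by a difference of −2.52 ± 0.19 from the 4-cell and −3.12 ± 0.19 from the 8-cell stage. Esco2 differed in the same way (−1.52 ± 0.13 and −1.61 ± 0.13); its later log2 fold changes were −0.39 and −0.29. Rab7, a GTPase of late endosomes, fell from 249 and 213 to 58.8 and 74.8 CPM at the 2-cell stage and had a log2 fold change of −0.16 at the 4-cell stage. Etv6, a repressor of the ETS family, differed by −2.00 ± 0.19 from the 8-cell stage. Other genes fell further at the later stages, such as Sin3a, the scaffold of a histone deacetylase complex, at −2.34 ± 0.12 in 4-cell embryos, the splicing factor Prpf18 at −3.01 ± 0.15, and Csnk2a1 at −2.13 ± 0.10. In 2-cell embryos Sin3a measured 887 and 843 CPM in Ctrl and 749 and 721 CPM in MERVL-KD (−0.23 ± 0.07 in the 4-library fit).

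Among the p53 targets the stages differed by gene. Ccng1 was higher at all 3 stages, by 1.85 ± 0.17, 3.00 ± 0.18 and 1.88 ± 0.17, and its 2-cell effect was smaller than the 4-cell effect (difference −1.16, adjusted p = 0.0093). Plk2 likewise rose more in 4-cell embryos (2.83 ± 0.26 against 1.25 ± 0.25, adjusted p of the difference 0.033). Plk3 rose in 2-cell embryos alone; its values were 1.46, 0.33 and −0.50, and the differences had adjusted p = 0.023 and 2.6e-04. Cdkn1a was at 1.46, 1.43 and 0.44, and differed between the 2-cell and 8-cell stages by 1.02 (adjusted p = 0.0092). Mdm2 was at −0.27 in 2-cell and 0.31 in 4-cell embryos (adjusted p of the difference 0.012). The medians of the arrest list were 0.28, 0.79 and 0.31 at the 3 stages, those of the repair list 0.31, 0.87 and 0.44, and those of the 2-cell markers −0.66, 0.23 and 0.00. For all genes they were −0.05, 0.03 and 0.

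All 8 genes with ASO sites in exons had negative log2 fold changes at each stage of this fit, and 7, 8 and 7 of them were called lower; the exception at the 2-cell and 8-cell stages was Gm38947 (−2.04 and −1.92). Gm44660 was at −8.27, −6.13 and −6.60, and both differences passed the test (adjusted p = 0.0028 and 0.035). Gm47808 had log2 fold changes of −7.09 ± 0.24, −7.48 ± 0.28 and −7.26 ± 0.29, and neither difference passed the test (adjusted p = 0.70 and 0.90). Ep400 was at −2.00, −0.97 and −0.58, so its 2-cell effect was larger than both later ones (adjusted p = 2.4e-04 and 4.1e-06), and Rad21 was at −1.15, −1.22 and −0.39, with a difference from the 8-cell stage (adjusted p = 0.0012). Zscan4c did not pass the test at any stage of this fit, with −1.55 ± 0.58 at the 2-cell stage.

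**Figure D5:**
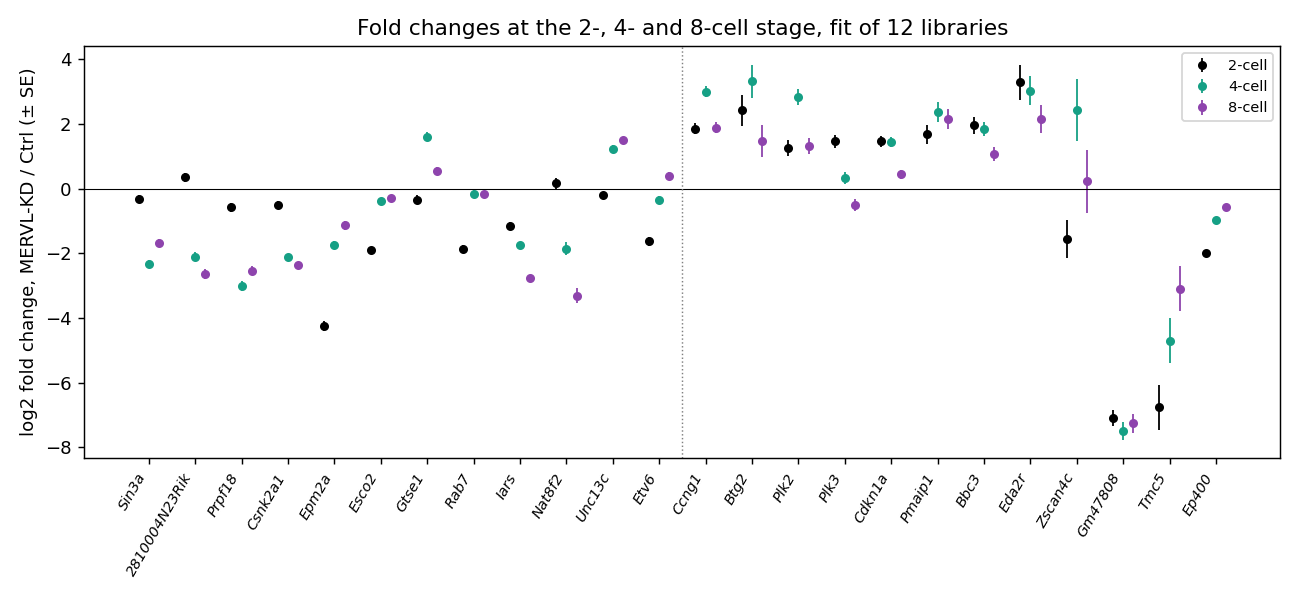
Log2 fold change of MERVL-KD against Ctrl with its standard error in 2-cell (black), 4-cell (green) and 8-cell (purple) embryos, from the fit of 12 libraries; genes left of the dotted line have the smallest adjusted p for a difference between stages, and those on the right are p53 targets and other named genes. Epm2a and Esco2 are lowest at the 2-cell stage, Sin3a, Prpf18 and Csnk2a1 are lowest later, and Gm47808 is near −7 at every stage.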

How the data were processed

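Total RNA was measured in 2 Ctrl and 2 MERVL-KD libraries of 2-cell embryos, each of 30 embryos, prepared by the authors with a stranded random-primed kit after removal of ribosomal RNA. The authors aligned the reads with STAR 2.5.3a to GRCm38, kept unique alignments and deposited raw counts per GENCODE gene and RepeatMasker family from featureCounts, without normalization. Of the genes with 1 to 50 counts, 72.5% to 74.5% held an even count, so mates were mostly counted separately; the strand setting and this choice are not given in the sources used here, and the true counting error exceeds what the counts imply. The 8-cell, 4-cell and 2-cell libraries entered the fit of stages, and libraries of other assays were not analysed here.

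From the counts, fold changes with standard errors were computed with edgeR 4.0.16 in R 4.3.3 (filterByExpr, TMM, robust quasi-likelihood test), with p-values adjusted by the Benjamini-Hochberg method over genes and repeat families. TMM-scaled CPM were used for display. In simulated counts for 21347 rows of this comparison, changes were set only in genes above a minimum level in Ctrl. An adjusted p under 0.05 with the right sign was reached by 70.1% of 2-fold, 95.5% of 4-fold and 100% of 8-fold changes. The fold threshold was not applied to these shares, while 10 unchanged rows met the full rule for a call. The simulation held no loss of MERVL and no GC trend. The scripts sought ASO sites with up to 2 mismatches on both strands, and promoters came from RefSeq (GRCm38.p6).

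Named genes were, in each direction, the 12 protein-coding and 6 other called genes with the smallest adjusted p, the 4 called members of each of 63 lists with the smallest adjusted p or, where none was called, the 2 highest-expressed, the 6 leading genes with an ASO site, the 4 leading genes of each stage difference in each direction, and Trp53, Mdm2, Cdkn1a, Duxf3, Zscan4c, Pou5f1, Cdx2, Eif1ad and Rnaseh1; exceptions are marked, and the results of some list members are not reported here. The members and lists were chosen with earlier results of these data known. Alternatives were DESeq2 1.42.0, its size factors, library size alone, other count filters, a replicate block, all 12 libraries, no fold threshold, a fit without the robust option, repeats or genes over 1% of counts left out, halved counts, each library left out and a GC-content offset.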

Additional observations from a re-analysis of the deposited data

Results flagged for a closer look

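Several genes were flagged because the effect of the knockdown differed between stages, by a test of the difference itself in the fit of 12 libraries (the quasi-likelihood test of edgeR, adjusted by the Benjamini-Hochberg method). In all, 552 genes differed between the 2-cell and 4-cell effects and 563 between the 2-cell and 8-cell effects. The values below are the 2-cell log2 fold change minus the later one, so a positive value means a higher MERVL-KD level, relative to Ctrl, at the 2-cell stage.

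Against the 4-cell stage the positive differences were 2.02 for Sin3a, 2.45 for 2810004N23Rik, 2.44 for Prpf18 and 1.64 for Csnk2a1. The uncharacterized gene 2810004N23Rik measured 74.4 and 94.2 CPM in Ctrl and 113 and 115 CPM in MERVL-KD 2-cell embryos and was lower in later MERVL-KD embryos. The negative differences were −2.52 for Epm2a, −1.52 for Esco2, −1.95 for Gtse1 and −1.71 for Rab7. Gtse1, a microtubule-binding protein that restrains p53, had log2 fold changes of −0.26 in the 4-library fit of 2-cell embryos and 1.61 in 4-cell embryos.

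Against the 8-cell stage the positive differences were 2.99 for 2810004N23Rik, 1.88 for Csnk2a1, 1.63 for Iars, 3.47 for the acetyltransferase-like gene Nat8f2 and 1.02 for Cdkn1a. The negative differences were −3.12 for Epm2a, −1.61 for Esco2, −1.70 for Unc13c, a synaptic vesicle priming gene, and −2.00 for Etv6. Unc13c measured 272 and 249 CPM in Ctrl and 222 and 257 CPM in MERVL-KD 2-cell embryos and rose in 8-cell embryos by 1.50 on the log2 scale.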

How the results depend on the processing

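The number of called genes stayed between 909 and 2004 under every alternative that kept the fold threshold, and was 2904 without it (1381 higher and 1523 lower), so 47.6% of the calls were then higher against 66.1%. With library size alone 1710 genes were higher and 294 lower (85.3% higher), and in the fit of all 12 libraries 506 were higher and 403 lower (55.7%). DESeq2 called 1054 (650 and 404), and the GC offset, chosen after seeing the data, 1301. When a library was left out the total lay between 1196 and 1543, with 710 to 944 higher and 439 to 599 lower. A group then held a single library, which was assumed to vary like the others. The stage differences gave 999 and 968 genes without the fold threshold, and 346 to 608 and 350 to 565 with a library left out, the lowest in both cases without MERVL-KD 2-cell replicate 1. The cause of these shifts was not tested.

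The replicate numbers are shared by both groups, and the labels do not say whether they pair the libraries. The deviations of replicate 1 from the group means had a correlation of −0.062 across 21347 rows. With so few libraries this value cannot decide whether libraries of the same number were prepared together. With the number as a block 1321 genes were called (855 and 466), 1271 of them shared with the fit without it (93.3% of those calls), and the stage differences gave 492 and 478. Of the named genes, Ier3 (1.26), Ndufb4 (1.44) and Acrv1 (1.75) lost their call under the block.

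Calls of genes named in the report that ended when a library was left out follow with the log2 fold change. Without Ctrl replicate 1 they were Casp8 (−0.93), Ier3 (1.29), Irf9 (0.92), Gm20767 (−0.87), Scrib (0.90), Snhg14 (0.92), Rbm44 (−0.85), Ndufb4 (1.62), Lig1 (−0.997), Slc5a3 (0.97), Star (1.04), Acrv1 (1.69), Bub3 (−0.93), Usp17le (−0.94), Acvrl1 (1.09), Fgfr3 (0.86), Gdf11 (0.64), Notch1 (0.86) and Notch2 (0.71). Without Ctrl replicate 2 they were Lif (1.02), Asns (1.43), Ier3 (1.24), Pramel3 (−0.94), Snord110 (1.93), Tars2 (0.99), Nup62cl (−0.96), Ndufb2 (0.92), Ndufb4 (1.26), Acrv1 (1.80), Cenpb (−1.13), Isg15 (1.79), Bmp4 (1.47), Fgfr4 (0.88), Notch3 (1.72) and Wnt9b (1.21). Leaving out MERVL-KD replicate 1 ended those of Bcl2l11 (0.95), Casp8 (−1.18), Ier3 (1.05), Irf9 (0.85), Tdpoz2 (−0.98), Gm20767 (−0.89), Nlrp4c (−0.996), Scrib (0.94), Kcnq1ot1 (−0.89), Rbm15 (−0.91), Snord110 (1.54), Tars2 (0.72), Rbm6 (−0.90), Rbm44 (−0.99), Slc5a3 (0.84), Star (1.06), Acrv1 (1.60), Cenpb (−0.81), Acvrl1 (1.01), Bmp4 (1.78), Fgfr3 (0.79) and Notch3 (1.63). Leaving out MERVL-KD replicate 2 ended those of Lif (1.24), Pramel3 (−0.92), Hand1 (1.27), Jup (0.90), Snhg14 (0.98), Nup62cl (−0.995), Ndufb4 (1.16), Acrv1 (1.87), Bub3 (−0.95), Usp17le (−0.74), Gdf11 (0.96), Notch1 (0.79), Notch2 (0.99) and Wnt9b (1.10).

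Other settings also ended calls of genes named in the report. On library size alone these were lower genes, at −1.01 to −0.72: Casp8, Klf10, Tdpoz2, Gm20767, Usp17le, Pramel3, Nlrp4c, Kcnq1ot1, Rbm15, Rbm6, Rbm44, Zfp644, Zfp367, Iars, Nup62cl, Rpa2, Lig1, Rad21, Ncapg, Bub3, Cenpp, Cenpb and D030056L22Rik. DESeq2 ended those of Lif, Casp8, Ier3, Scrib, Snord110, Ndufb4, Acrv1, Bmp4, Notch1, Notch2, Notch3 and Wnt9b. The fit of 12 libraries ended those of Casp8, Dusp5, Ier3, Zscan4c, Gm20767, Usp17le, Pramel3, Hand1, Scrib, Snhg14, Snord110, Eif2ak2, Isg15, Tars2, Ndufb2, Slc5a3, Star, Acrv1, Cenpb, Acvrl1, Bmp4, Fgfr3, Gdf11, Notch1 and Wnt9b, and the GC offset those of Ier3, Nlrp4c, Scrib, Rbm15, Rbm6, Rbm44, Zfp644, Ndufb4, Tk1, Rad21, Bub3, Cenpp, Gdf11 and Notch1. The remaining settings, the block aside, ended at most 2 each, among Scrib, Notch1, Rbm6, Snord110 and Acrv1.

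None of the 1362 called genes changed sign under any alternative that gave it a value (1011 of them under the strictest count filter, 1285 or more otherwise). Among named genes that were not called, the sign turned on library size alone for Brca2 (0.026), Dnajb9 (0.064), Calr (0.17), Hsp90aa1 (0.19), Mafg (0.078), Dcp2 (0.14), Rif1 (0.24), Obox6 (0.015), Omt2b (0.12), Pan3 (0.051), Fbxw19 (0.15), Sall4 (0.26), Atrx (0.20), Npm1 (0.100), Csnk2b (0.13), Med13 (0.28), Sqle (0.13), Ctsl (0.27), Pax6 (0.13), Mdm2 (0.098), Pou5f1 (0.22), Eif1ad (0.072), Sin3a (0.053), Gtse1 (0.031) and Unc13c (0.16). It turned with the GC offset for Rif1 (0.051), Atrx (0.018), Med13 (0.090) and Ctsl (0.076), with at least 10 counts in every library for Med13 (0.0091), and in the fit of 12 libraries for G6pdx (−0.0075), Crebbp (−0.060), Resf1 (−0.011), Set (−0.031) and Psme4 (−0.046). With a library left out the range crossed 0 for Hsp90ab1 (−0.021 to 0.20), G6pdx (−0.088 to 0.23), Crebbp (−0.043 to 0.067), Sall4 (−0.089 to 0.018), Set (−0.11 to 0.21), Psme4 (−0.012 to 0.062), Med13 (−0.078 to 0.035), Sqle (−0.38 to 0.018), Ctsl (−0.20 to 0.15), Map1lc3b (−0.027 to 0.20) and Pax6 (−0.74 to 0.24). Precision was limited by 2 libraries per group and, at low levels, by counts in which both mates of a pair were mostly counted.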

Other observations

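Counts by chromosome and biotype are given as values, untested, beside 4.37% higher and 2.24% lower over all genes. On chromosome 11, 87 genes of the 1471 tested rose (5.91%) and 14 fell (0.952%), and on the X chromosome 40 of 753 rose (5.31%) and 31 fell (4.12%); both chromosomes were chosen after their values were seen. Pseudogenes gave 89 higher (4.6%) and 42 lower (2.17%) of 1934, and entries awaiting experimental evidence 27 higher (4.32%) and 36 lower (5.76%) of 625.

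Genes that fell strongly and belong to none of the lists include Hbp1, a transcriptional repressor of cell cycle genes, from 38.6 and 35.5 to 7.31 and 5.83 CPM (−2.49 ± 0.16), and Gspt1, the translation termination factor eRF3a, from 77.8 and 71.3 to 25.4 and 22.3 CPM (−1.64 ± 0.12). Tbl2 (−2.03 ± 0.15), the calcium-binding protein gene Nucb2 (−3.34 ± 0.24) and Parp8, a member of the ADP-ribosyltransferase family (−3.03 ± 0.21), fell as well. Gm44739, with an exonic MERVL-ASO1 site on chromosome 7, fell from 120.4 and 139 to 0.711 and 0.180 CPM. These genes were chosen after their values were seen.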
